A study of Homo sapiens with 4 samples.

Results

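The DEAD-box and DEAH-box genes, named after the letters of a sequence motif in their proteins, were taken as every gene whose symbol in the annotated peak table starts with DDX or DHX and a digit and that had a peak centred within 1 kb of its transcription start site (TSS). The germline gene DDX4 and the interferon-induced genes DDX58, DDX60, DDX60L and DHX58 were set aside by the same rule. It found 44 genes among 16403 genes with a peak that close, and the signal of their 70 peaks was summed per gene. Of the 44, 39 are protein-coding. The others are the pseudogene DDX12P, the antisense genes DDX11-AS1 and DDX39B-AS1, and the non-coding genes DDX11L2 and DDX11L5.

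The study profiled H3K4me3, trimethylated lysine 4 of histone H3, in HCC1428 cells, an established breast adenocarcinoma line of WT genotype grown in RPMI medium. The assay was CUT&Tag, in which an antibody brings the transposase Tn5 to the mark, and the DNA cut there is sequenced. There were 2 libraries of cells given 2.5 µM C48, an inhibitor of the KDM5 enzymes that remove methyl groups from this lysine, and 2 libraries of cells given DMSO, the vehicle, all collected on day 5. The labels call the replicates biological without naming cultures, so the p-values speak only for the spread among these 4 libraries, which can be technical.

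RNA helicases of the DEAD-box and DEAH-box families use ATP to unwind short RNA duplexes or to strip proteins from RNA, and each step of an RNA's life, from transcription to decay, has its own members. Several also unwind RNA:DNA hybrids, the base-paired part of R-loops. Most are housekeeping genes with promoters rich in CpG dinucleotides, the kind of promoter that carries a strong H3K4me3 peak just downstream of the start site.

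The 4 promoters below span the range of the results: DDX5 and DDX3X had the lowest fold changes of the protein-coding members, DDX11 the highest, and DHX8 had a peak at its start and another further downstream that moved in opposite directions. Each is 250 bases before to 50 bases after the RefSeq start on GRCh38.p14, 5′ to 3′ on the gene's strand, with matches to short promoter motifs in capitals.
DDX5 promoter, chr17:64506589-64506888, - strand: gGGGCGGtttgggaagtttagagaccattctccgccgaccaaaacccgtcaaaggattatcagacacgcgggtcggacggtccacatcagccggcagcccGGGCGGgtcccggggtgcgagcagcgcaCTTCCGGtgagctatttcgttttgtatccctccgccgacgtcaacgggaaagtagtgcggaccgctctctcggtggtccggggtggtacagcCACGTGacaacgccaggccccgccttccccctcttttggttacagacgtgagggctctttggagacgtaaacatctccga
DDX3X promoter, chrX:41333058-41333357, + strand: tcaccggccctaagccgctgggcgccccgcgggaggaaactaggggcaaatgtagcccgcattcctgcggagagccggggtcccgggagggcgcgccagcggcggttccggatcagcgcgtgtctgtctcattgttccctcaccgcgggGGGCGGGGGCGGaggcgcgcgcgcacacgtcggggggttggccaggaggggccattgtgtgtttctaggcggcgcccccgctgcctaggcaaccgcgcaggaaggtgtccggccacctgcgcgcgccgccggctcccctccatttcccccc
DDX11 promoter, chr12:31073610-31073909, + strand: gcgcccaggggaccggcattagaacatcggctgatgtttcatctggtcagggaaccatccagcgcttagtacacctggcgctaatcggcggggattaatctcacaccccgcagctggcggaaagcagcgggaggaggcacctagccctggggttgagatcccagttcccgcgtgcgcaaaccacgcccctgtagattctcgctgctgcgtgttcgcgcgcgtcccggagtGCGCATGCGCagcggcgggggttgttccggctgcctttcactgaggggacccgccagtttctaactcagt
DHX8 promoter, chr17:43483725-43484024, + strand: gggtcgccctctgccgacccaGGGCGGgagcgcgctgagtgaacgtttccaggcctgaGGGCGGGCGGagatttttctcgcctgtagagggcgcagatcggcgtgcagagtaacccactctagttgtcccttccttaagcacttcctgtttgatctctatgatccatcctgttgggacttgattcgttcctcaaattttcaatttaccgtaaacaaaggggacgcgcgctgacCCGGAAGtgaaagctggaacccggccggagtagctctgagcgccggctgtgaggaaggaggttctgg

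The motifs searched on both strands, with overlapping matches allowed, were the NF-Y motif CCAAT, the TBP motif TATAAA, the GC box GGGCGG, the core of ETS family sites CCGGAAG, the NRF1 motif GCATGCGC, the E box CACGTG and the YY1 motif AAGATGG. RefSeq promoters were matched for 34 of the 41 members that could be tested. CCGGAAG was found in 15 of the 34 (44.1%) and in 10.7% of 27305 promoters of the same length, and GGGCGG in 19 (55.9%) against 44.6%. The sequence TATAAA was in 0 of the 34 members' windows and in 11.95% of all. The members' windows held 9 to 44 CpG dinucleotides, with a median of 27, against a median of 14 over all promoters. The 27305 promoters were taken whether or not they carry H3K4me3, while the members had to have a peak near an annotated start. That start is not always the one of the window: the DDX19B window, with 9 CpG dinucleotides, lies apart from its only peak. Whether the members differ in these motifs or in CpG from other marked promoters was not tested. DDX5 carries GC boxes, the E box and an ETS match, DDX3X adjoining GC boxes, DDX11 overlapping NRF1 matches and DHX8 GC boxes and an ETS match. These matches describe letters, not bound sites. A gene on the opposite strand starts within 1 kb upstream of 10 of the 34 members, CEP95 for DDX5 and DDX11-AS1 for DDX11 among them.

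The deposited values hold no spike-in scaling, so libraries were scaled with TMM factors over the called peaks, which hides any change common to most peaks. The paper normalized to added Drosophila nuclei, its spike-in, and described a global increase of H3K4me3 with C48, with gains at promoters. A member lower relative to the bulk of peaks can thus have gained the mark in the paper's scaling. Levels are given below as TMM-scaled tags per 10 M aligned tags, and "higher" and "lower" mean a Benjamini-Hochberg adjusted p under 0.05 in limma over all genes. On this scale the median log2 fold change of C48 over DMSO was -0.43 over the 14648 genes tested. It was -0.03 with the tags per 10 M as deposited and 0.38 when the promoters of 74 ribosomal protein genes were taken as the standard. The members' median lay 0.12 below that of all genes under each of these scalings (differences of -0.12). This follows from the arithmetic, since a scaling shifts all genes by nearly the same amount, and is no separate support. The sign of the members' change did move with the scaling. In bulk cells, fewer cells that carry the mark and less of the mark per cell cannot be told apart.

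Aligned tags numbered 58.4 and 72.7 M in C48, against 88.4 and 64.6 M in DMSO, with 64.0% to 66.3% of them inside peaks. HOMER had called 37462 and 37867 peaks in the C48 libraries, against 30162 and 29745 in the DMSO libraries. Of 13 luminal markers, 12 had at least 5 tags per 10 M (GATA3 did not), with sums of 5226 to 5396 in C48 and 8198 to 8469 in DMSO. Such a level was reached by 2 of 7 basal and myoepithelial markers, 1 of 10 blood and immune markers and 2 of 10 stromal and endothelial markers, while KRT5, KRT14, TP63, PTPRC and PECAM1 stayed under it. The summed signals were 275 to 287 in C48 and 160 to 190 in DMSO for the basal list, 40.6 to 43.6 in C48 and 18.0 to 20.3 in DMSO for the blood list, and 168 to 172 in C48 and 127 to 130 in DMSO for the stromal list. Single markers did not all move with the sums. Of the 12 luminal markers 10 were lower in C48 and 2 higher, against 67.7% and 16.3% of all genes. Of the 2 basal markers 1 was lower (-0.32) and 1 higher (1.16). The blood marker was higher, and of the 2 stromal markers 1 was higher and 1 did not pass the test. The part of these markers in the results was not tested.

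Promoter H3K4me3 of most members was lower in C48 relative to the bulk of peaks, as it was at most promoters. Of the 41 members with a mean of at least 5 tags per 10 M, 36 were lower in C48 (87.8%) and 1 was higher (2.44%), against a background of 67.7% lower and 16.3% higher over all genes. The other 4, DDX11-AS1, DDX47, DDX19B and DDX53, did not pass the test. The members' median log2 fold change was -0.55, and 31 of the 41 lay below the median of all genes. The libraries of C48 and DMSO did not overlap in 38 members (92.7%), against 91.2% of all genes.

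The sign of these changes depended on the scaling. With the tags per 10 M as deposited, 23 members were lower and 7 higher (backgrounds 41.2% lower and 35.8% higher), and with the ribosomal protein promoters as standard 4 were lower and 29 higher (backgrounds 8.41% lower and 73% higher). DDX5, DDX3X, DDX59 and DHX40 were lower under all 6 scalings tried, and 0 members were higher under all 6. The share of all genes with such a call under all 6 was not worked out. These 4 are also the only members lower with the ribosomal standard, beside 8.41% of all genes.

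**Figure D1:**
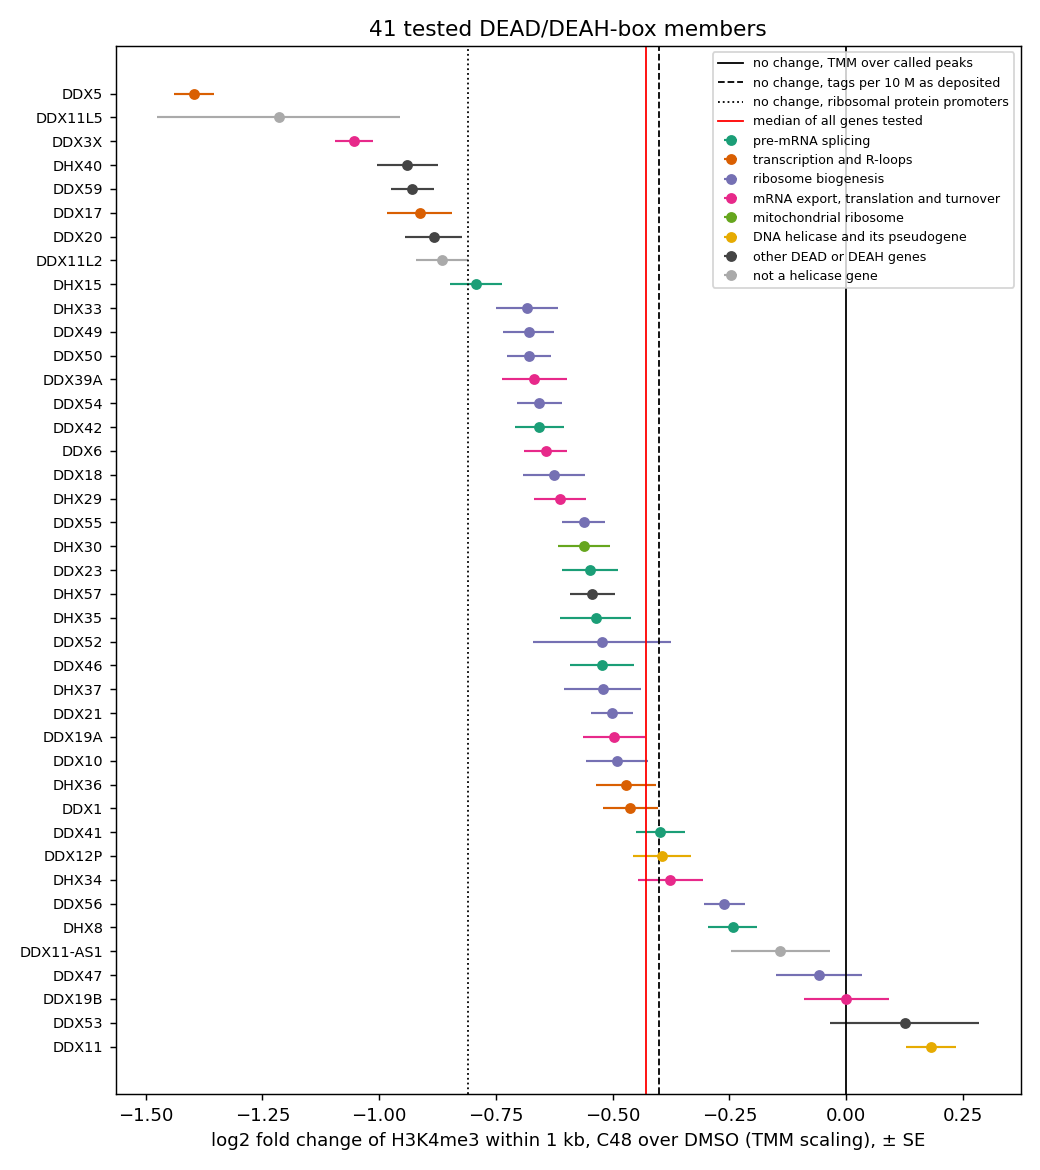
Log2 fold change of H3K4me3 within 1 kb of the TSS, C48 over DMSO, with its standard error, for the 41 tested members in rising order from top to bottom, coloured by role. The vertical lines mark where no change would lie under 3 scalings and the median of all genes (-0.43). DDX5 (-1.40) stands lowest and DDX11 (0.18) highest, and 31 members lie left of the median of all genes, and with the ribosomal standard most members lie above 0.

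Members with more signal had lower fold changes, as all genes did. Over the 41 members, Spearman's rho of the log2 fold change with the mean level was -0.31, and over all genes -0.56, a description across genes that share the same 4 libraries. The members carried a median of 320 tags per 10 M, against 274 over all genes, and 11 of them were in the upper 3 of 10 equal bins of signal. The median log2 fold change of all genes was -0.72 in the bin with most signal and 0.40 in that with least. Set against genes of their own bin, 27 of the 41 members lay below the median, with a median difference of -0.07. DDX5 lay 0.68 and DDX3X 0.34 below (differences of -0.68 and -0.34), while DDX56 lay 0.39 and DDX11 0.74 above.

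**Figure D2:**
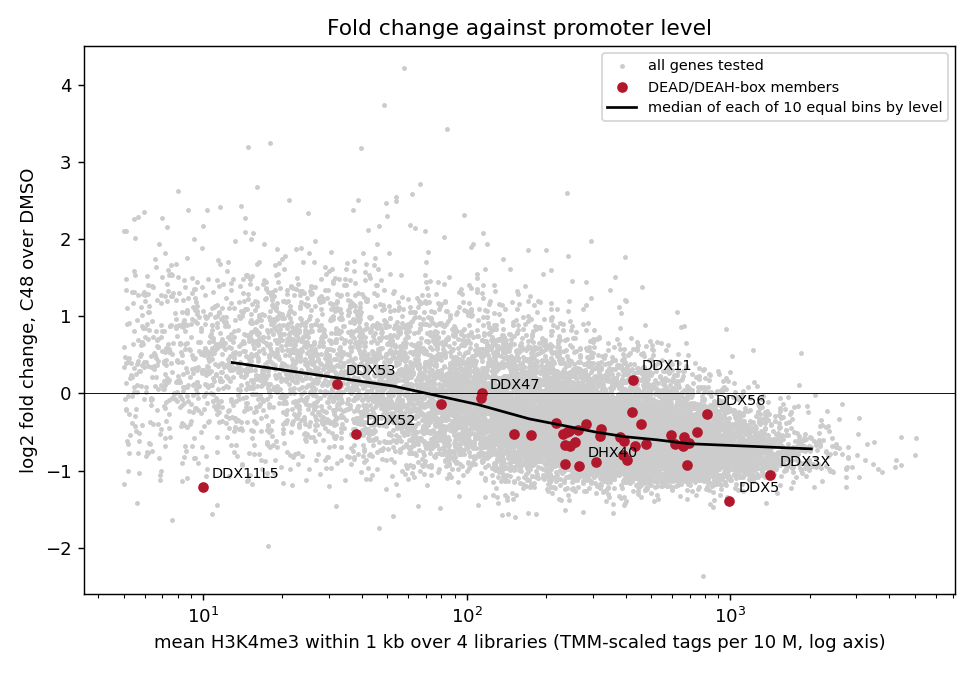
Log2 fold change, C48 over DMSO, against the mean H3K4me3 level of the 4 libraries on a log axis, for all 14648 genes tested (grey) and the 41 members (red), with the median of each of 10 equal bins by level (black line). The line reaches -0.72 in the bin with most signal, most members follow it, and DDX11 (0.18) and DDX5 (-1.40) stand furthest from it among the strong promoters. With the ribosomal standard all points and the line move up together and most members lie above 0.

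The helicases of transcription and R-loops include DDX5, which had the lowest fold change of all members. All 4 tested were lower in C48, with a median of -0.69, where 67.7% of all genes were lower. With the deposited scaling 2 were lower and 0 higher (all genes 41.2% and 35.8%), and with the ribosomal standard 1 was lower and 2 were higher (all genes 8.41% and 73%). DDX5 encodes p68, a coregulator of transcription, the oestrogen receptor's included, that also resolves RNA:DNA hybrids. Its promoter held 539 and 552 tags per 10 M in the C48 libraries, against 1450.0 and 1423 in the DMSO libraries. The C48 libraries lay far under both DMSO libraries, at 0.380 times their mean. The log2 fold change was -1.40 (SE 0.04, adjusted p = 3.13e-45 in limma, n = 2 each), at percentile 0.198 of all genes, and it was between -1.52 and -0.59 over the 6 scalings. Its strongest peak, chr17:64506122-64506621, overlaps the downstream end of the window printed above and is annotated promoter-TSS. The other peaks, in an exon and an intron, also had less signal in C48, with 104 and 107 tags per 10 M as deposited, against 206 and 208 in DMSO, for the exon peak.

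DDX17, p72, is the close paralogue of DDX5. It had 163 and 163 tags per 10 M in C48, against 326 and 291 in DMSO, from a single peak at chr22:38505576-38506273 in an intron. The groups did not overlap, and the log2 fold change was -0.91 (SE 0.07, adjusted p = 3.39e-21 in limma), at percentile 8.50. DDX1, an RNA helicase of the tRNA ligase complex that also unwinds RNA:DNA hybrids, had 272 and 270.0 tags per 10 M in C48, against 373 and 375 in DMSO. DHX36, which unwinds G-quadruplexes of DNA and RNA, had 224 and 220.1 tags per 10 M in C48 and 320 and 297 in DMSO. Their log2 fold changes of -0.46 and -0.47 lay at percentiles 47.3 and 46.4, the middle of all genes, and turned to 0.34 and 0.33 with the ribosomal standard. The difference between DDX5 or DDX17 and these genes was not tested.

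The table names a neighbour as nearest gene for the peak of DHX9, RNA helicase A, which unwinds RNA:DNA hybrids and double-stranded RNA, so that DHX9 is not among the 44. Taking peaks centred within 1 kb of the RefSeq start whatever gene they were annotated to, a choice made after seeing the data, DHX9 had 328 and 331 tags per 10 M in C48 and 556 and 529 in DMSO, a log2 fold change of -0.72 (adjusted p = 7.81e-22 in limma). The same window held values for DHX38 (-0.84), DDX31 (-0.76), DDX28 (-0.34), DDX27 (-0.21) and DDX25 (-0.13, adjusted p = 0.21). DDX28, a helicase of the mitochondrial ribosome, had 605 and 649 tags per 10 M in C48 and 799.7 and 786 in DMSO, from peaks annotated to DUS2. DHX16, DDX24, DDX51 and DHX32 were not analysed here. In this RefSeq window, which also takes in the peak of its head-to-head neighbour CEP95, DDX5 changed by -0.99.

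**Figure D3:**
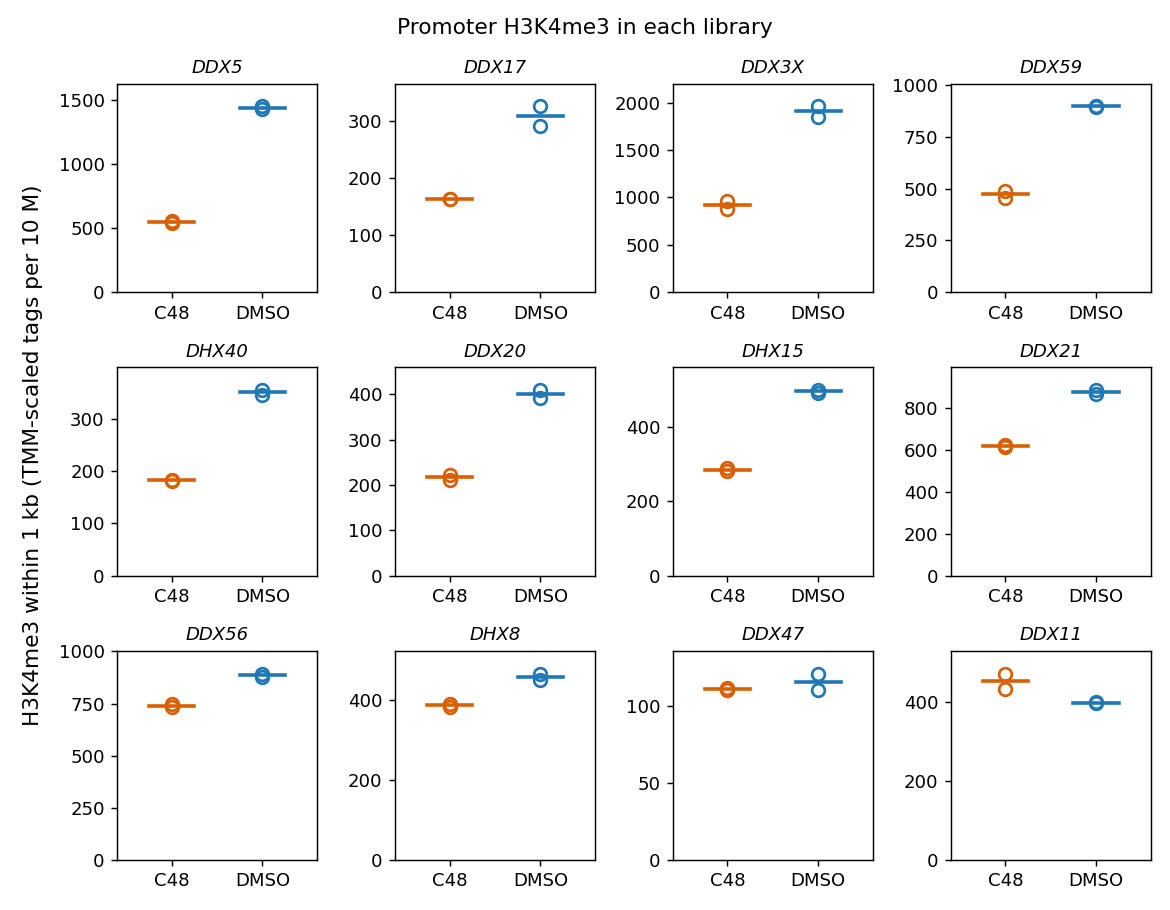
H3K4me3 within 1 kb of the TSS in TMM-scaled tags per 10 M for 12 members, with C48 on the left and DMSO on the right of each panel, circles for the 2 libraries of a group and bars for their mean; each axis starts at 0. In DDX5 the C48 libraries are at 539 and 552 and the DMSO libraries at 1450.0 and 1423, in DDX47 the groups overlap, and in DDX11 the C48 libraries (433 and 472) lie above the DMSO libraries.

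The splicing helicases had a median close to that of all members. All 7 tested were lower in C48, with a median of -0.54 and a range of -0.79 to -0.24, against 67.7% of all genes lower. With the ribosomal standard 6 were higher and 0 lower (all genes 73% and 8.41%), and with the deposited scaling 3 were lower and 1 higher (all genes 41.2% and 35.8%). DHX15, which takes the spliceosome apart after splicing, had 281 and 290.1 tags per 10 M in C48, against 499.9 and 491 in DMSO. Its log2 fold change of -0.79 was the lowest of the group (SE 0.06, adjusted p = 3.49e-23 in limma). DDX41, a helicase of the catalytic spliceosome, had 389.6 and 397 tags per 10 M in C48 and 529.8 and 508 in DMSO. Its log2 fold change of -0.40 lay close to the median of all genes, at percentile 52.7, and was 0.00182 with the deposited scaling. The others were DDX42 (-0.66), a partner of the U2 snRNP complex SF3B, DDX23 (-0.55) of the U5 snRNP, DHX35 (-0.54), found in the catalytic spliceosome, DDX46 (-0.52), which acts with the U2 snRNP, and DHX8 (-0.24), which releases the spliced mRNA. With only the peaks annotated promoter-TSS, DDX23 was higher (0.49, adjusted p = 0.000336 in limma) and DHX35 was 0.25 (adjusted p = 0.454 in limma). These values come from weak uncalled peaks upstream, at -514 and -372 bp. Their called peaks near the start, annotated intron, are left out there and changed by -1.01 and -0.57. DDX39B, needed for spliceosome assembly and mRNA export, has its only row within 1 kb on an alternate contig, listed at 0 in all 4 libraries, as does DDX39B-AS1.

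Ribosome biogenesis was the largest role group, with 12 tested members, and 11 of them were lower in C48, with a median of -0.54, against 67.7% of all genes lower. In the deposited scaling 7 were lower and 2 higher (all genes 41.2% and 35.8%), and with the ribosomal standard 0 were lower and 10 higher (all genes 8.41% and 73%). DDX21, a nucleolar helicase of ribosomal RNA transcription and processing, had 621 and 612 tags per 10 M in C48, against 885 and 863 in DMSO. Its log2 fold change was -0.50 (SE 0.04, adjusted p = 1.08e-17 in limma), at percentile 43.7. DHX33 (-0.68), DDX49 (-0.68), DDX50 (-0.68), DDX54 (-0.66), DDX18 (-0.63) and DDX55 (-0.56) were lower by more than DDX21, and DDX52, DHX37 and DDX10 by about as much (-0.52 to -0.49). DDX50 is the paralogue and genomic neighbour of DDX21 on chromosome 10. Of the others, DHX33 acts in ribosomal RNA transcription, DDX49 in ribosomal RNA processing, DDX18 and DDX55 on the large ribosomal subunit, DDX10 and DDX52 on the small one, and DHX37 releases the U3 snoRNA from the small subunit.

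DDX56 and DDX47 stood at the other end of this group. DDX56, a helicase of the large ribosomal subunit, carried the most signal of the group in C48, with 746 and 731 tags per 10 M, against 893.5 and 876 in DMSO. Its log2 fold change of -0.26 (SE 0.04, adjusted p = 9.55e-08 in limma) became 0.14 with the deposited scaling and 0.55 with the ribosomal standard. DDX47, a nucleolar helicase of ribosomal RNA processing, had 110.2 and 112 tags per 10 M in C48, against 110.4 and 121 in DMSO. Its groups overlapped, and the log2 fold change was -0.06 (SE 0.09, adjusted p = 0.56). With the deposited scaling DDX47 was higher (0.34) and it lay at percentile 73.3 of all genes.

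Among the helicases of mRNA export, translation and turnover, 6 of 7 were lower in C48, with a median of -0.61, against 67.7% of all genes lower, and DDX3X stood lowest. With the deposited scaling 4 were lower and 1 higher (all genes 41.2% and 35.8%), and with the ribosomal standard 1 was lower and 5 were higher (all genes 8.41% and 73%). DDX3X is the X-linked helicase that helps start translation on structured mRNAs. Its promoter carried the most signal of all members, with 879.5 and 962 tags per 10 M in C48, against 1968 and 1856 in DMSO. The log2 fold change was -1.05 (SE 0.04, adjusted p = 7.22e-39 in limma), at percentile 3.19, and between -1.18 and -0.25 over the 6 scalings. The signal lay in adjoining peaks, chrX:41333955-41334502 and chrX:41334505-41334913, which fell by 1.13 and 1.10 on the log2 scale, and in a weaker peak over the start printed above.

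DDX6, the P-body helicase of translational repression and mRNA decapping, had 529 and 562 tags per 10 M in C48, against 843 and 861 in DMSO, a log2 fold change of -0.64. DDX39A, the export helicase related to DDX39B, had 192 and 172 in C48, against 301 and 279 in DMSO, a log2 fold change of -0.67. DHX29 (-0.61) acts in translation initiation and DHX34 (-0.38) in nonsense-mediated decay. The paralogues DDX19A and DDX19B, which release mRNA at the nuclear pore, are neighbours on chromosome 16. DDX19A had 193 and 206 tags per 10 M in C48, against 289.5 and 274 in DMSO, with a log2 fold change of -0.50 (SE 0.07, adjusted p = 2.25e-10 in limma). DDX19B had 116 and 112.5 in C48, against 117 and 112 in DMSO, with a log2 fold change of 0.00028 (SE 0.09, adjusted p = 0.998). The DDX19B value comes from a single exon peak, chr16:70299161-70299533. It lies at an annotated start outside the RefSeq window used for its motifs, chr16:70294527-70294826. The difference between the paralogues was not tested.

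DHX30, of the mitochondrial ribosome, was lower (-0.56). In the remaining group, of mixed roles, 4 of 5 were lower in C48, with a median of -0.88, against 67.7% of all genes lower. With the deposited scaling 4 were lower and 1 higher (all genes 41.2% and 35.8%), and with the ribosomal standard 2 were lower and 2 higher (all genes 8.41% and 73%). DHX40, a DEAH-box gene of little known function, had 181 and 183.5 tags per 10 M in C48, against 355 and 346 in DMSO, a log2 fold change of -0.94. DDX59, mutated in an orofaciodigital syndrome, had 454.6 and 488 in C48, against 896 and 899 in DMSO, a log2 fold change of -0.93. DDX20, Gemin3 of the SMN complex that builds snRNPs, had 222 and 212 in C48, against 409.5 and 392 in DMSO, a log2 fold change of -0.88. These 3 lay at percentiles 7.175, 7.735 and 10.6, and in each both C48 libraries lay under both DMSO libraries. DHX57 (-0.54) was nearer to the middle.

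The cancer/testis genes DDX43 (HAGE) and DDX53 (CAGE), normally active in the germline, had little or no mark. DDX43 was listed at 0 in 3 libraries and at 0.2665 scaled tags per 10 M in a DMSO library. DDX53 had 38.2 and 29.1 tags per 10 M in C48, against 31.7 and 29.3 in DMSO, with overlapping groups and a log2 fold change of 0.13 (SE 0.16, adjusted p = 0.46 in limma). It reached 0.51 and passed the test with the deposited scaling.

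DDX11 was the single member higher in C48. It encodes an iron-sulphur DNA helicase of sister chromatid cohesion rather than an RNA helicase. Its peak, chr12:31073845-31074829, held 433 and 472 tags per 10 M in C48, against 399.6 and 398 in DMSO. The log2 fold change was 0.18 (SE 0.05, adjusted p = 0.00156 in limma), at percentile 82.2 of all genes. The call was lost with DESeq2 size factors (0.05, adjusted p = 0.413 in limma) and without C48 replicate 2 (0.12, adjusted p = 0.108 in limma), where 0 members were higher. Over all alternatives its adjusted p in limma, edgeR or DESeq2 lay between 5.68e-81 and 0.413. With the other scalings it was between 0.58 and 0.99. DDX11-AS1, which starts head to head with DDX11, had 74.95 and 77.45 in C48, against 85.6 and 82.7 in DMSO, a log2 fold change of -0.14 (adjusted p = 0.21). Summed over the shared region, the value was 0.13. The pseudogene DDX12P, with a log2 fold change of -0.39 that was 0.0047 with the deposited scaling and 0.41 with the ribosomal standard, is nearly identical to DDX11, so reads can be split between them and the separate values of both are uncertain.

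DDX11L2 and DDX11L5 carry the symbol but are no helicase genes, and they belong to a family of near-identical copies, so their values are uncertain too. DDX11L2 had 281 and 294.5 tags per 10 M in C48, against 535 and 514 in DMSO, a log2 fold change of -0.87. DDX11L5 had 4.905 and 6.36 in C48, against 15.1 and 13.6 in DMSO, a log2 fold change of -1.22 (SE 0.26, adjusted p = 1.83e-05), from 33 and 53 tags in C48 and 115 and 77 in DMSO. In both genes the groups did not overlap. The DDX11L5 peak, at -885 bp from the start, was among the last inside the limit of 1 kb, with those of DDX39A (886 bp downstream) and DDX12P (at -914 bp), and the nearest called peak beyond it was that of DDX18, 1305 bp downstream.

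DEAD-box, DEAH-box and other RNA helicases had similar medians. Of the protein-coding DDX genes, 22 of 26 were lower and 1 higher, with a median of -0.56, and of the DHX genes 11 of 11 were lower, with a median of -0.54, against backgrounds over all genes of 67.7% lower and 16.3% higher. With the ribosomal standard 3 DDX genes were lower and 19 higher, and 1 DHX gene was lower and 8 higher, against backgrounds of 8.41% lower and 73% higher. A list of 21 other RNA helicases had 16 tested members, all 16 lower, with a median of -0.64, beside the same 67.7% of all genes, but with the ribosomal standard 4 were lower and 9 higher, beside 8.41% and 73%. Among them are the translation initiation helicases EIF4A1 and EIF4A2. EIF4A1 had 124 and 134 tags per 10 M in C48, against 298.5 and 273 in DMSO, a log2 fold change of -1.14, and EIF4A2 had 216 and 224 in C48, against 444 and 431 in DMSO (-0.99). Among the interferon-induced genes set aside, DHX58 was higher (0.98), DDX60 lower (-0.37), and DDX58 and DDX60L did not pass the test (-0.12 and -0.19).

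Within single promoters, the called peak at the start and the called peaks further downstream often moved in opposite directions relative to the bulk of peaks. Distances are to the start in the peak annotation, which can differ between peaks of a gene and from the RefSeq start used for the motifs. Of the members' peaks that HOMER had called in at least 1 of the 4 libraries and that were centred within 500 bp of the start, 34 of 38 were lower and 1 was higher, with a median of -0.64, against backgrounds of 69.8% lower and 14.7% higher. From 500 bp to 1 kb, 3 of 7 were lower and 4 higher (backgrounds 48.6% and 30.5%), and both peaks from 1 to 3 kb were higher (backgrounds 23.2% lower and 54.7% higher). The lower ones include DDX56 and DDX3X, whose annotated starts differ from the RefSeq starts used here. A weak peak at any distance can have entered through calls in the C48 libraries alone, where more peaks were called. Its direction is then partly set by this filter, which the backgrounds also passed. Over all 76 called peaks of the members, 43 were lower and 19 higher (backgrounds over all called peaks 39.2% and 32.4%). In the tags per 10 M as deposited 31 were lower and 29 higher (backgrounds 23.2% and 53.3%), and with the ribosomal standard 6 were lower and 54 higher (backgrounds 5.96% and 78.1%). In DHX8 the peak over the start, chr17:43483872-43484376, had 181 and 183 tags per 10 M in C48, against 323 and 356 in DMSO, a log2 fold change of -0.89. The next peak, chr17:43484468-43485175 in an intron, had 208 and 200.4 in C48, against 126 and 110.4 in DMSO, a log2 fold change of 0.79. Both passed the test, in opposite directions, and their summed signal changed by -0.24. With the ribosomal standard many of the lower peaks have a positive sign, while the order of inner and outer peaks within a promoter stays.

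The same pair of directions was seen in DHX34, DHX37, DDX23, DDX18 and DHX15. In DHX34 the start peak changed by -0.65 and the peak 761 bp downstream by 1.17, with 43.1 and 47.2 tags per 10 M in C48 and 22.4 and 16.9 in DMSO. In DDX18 the start peak changed by -0.63 and the peak 1305 bp downstream by 1.82, with 38.96 and 46.8 in C48 and 11.9 and 10.9 in DMSO. In DHX15 the values were -0.79 and, 1825 bp downstream, 1.53. DHX37 (-0.73 and 0.48) and DDX23 (-1.01 and 0.34) had smaller rises. Among the members with called peaks in both zones, DDX3X was the exception, since its outer peak, 543 bp downstream, changed by -1.10. That distance is to an annotated start other than the RefSeq start of the printed window. Both called DDX3X peaks lie downstream of that window, so the zones of this gene depend on the start chosen. Peaks not called went both ways. As deposited, that of DDX5, 732 bp downstream, had 41.1 and 36.6 tags per 10 M in C48, against 58.5 and 60.2 in DMSO. That of DDX49, 701 bp downstream, had 80.3 and 87.1 in C48, against 41.2 and 37.8 in DMSO. In DMSO the start peaks had more signal than the outer ones, and distance and level were not separated. DDX56 (-0.26) and DDX11L5 (-1.22) have their only peak between 500 bp and 1 kb of the annotated start. The DDX56 peak, chr7:44573572-44574391, covers its whole RefSeq promoter window, chr7:44573859-44574158, so by that RefSeq start it is a start peak.

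**Figure D4:**
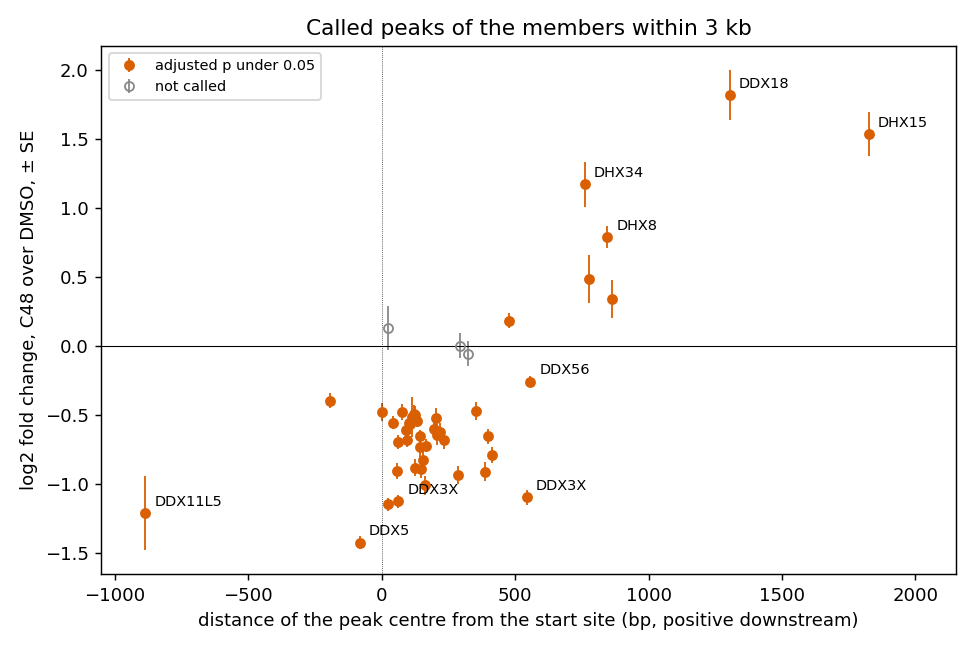
Log2 fold change, C48 over DMSO, with its standard error, of every called peak of a member within 3 kb, against the distance of its centre from the annotated start site in bp (positive downstream). Peaks near the start lie between -1.43 and 0.18, and those more than 750 bp downstream, such as DHX8 (0.79), DHX34 (1.17), DHX15 (1.53) and DDX18 (1.82), lie above 0; with the ribosomal standard all points move up together and many of those near the start also lie above 0.

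The ratio of outer to inner signal within a library does not depend on the scaling, beyond the 1 added before taking logs. With the signal from 1 to 3 kb set against that within 1 kb, the ratio was higher in C48 in 6 of 6 members with enough signal, by 0.82 to 2.44 on the log2 scale, against backgrounds of 75.9% higher and 5.29% lower over 2705 genes. Outer peaks had to be called in some library to be summed, so the limit given above for weak peaks holds here too. DDX18 had 18.7 and 24.1 outer tags per 100 inner tags in C48, against 3.71 and 3.64 in DMSO, and DHX15 18.8 and 19.7 in C48, against 3.20 and 4.27 in DMSO. In DDX42 the values were 31.8 and 38.0 in C48, against 9.255 and 9.25 in DMSO. The outer signal itself was higher in C48 for DDX18 (1.82), DHX15 (1.53), DHX36 (1.26), DDX42 (1.24) and DDX39A (0.67) and did not pass the test for DDX17 (-0.09, adjusted p = 0.56 in limma), so 5 of 6 were higher and 0 lower, against backgrounds of 61.7% higher and 17.4% lower.

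With the boundary moved to 500 bp, a choice made after seeing the data, 20 members had signal on both sides. The ratio of the signal from 500 bp to 3 kb over that within 500 bp was higher in C48 in 16 of the 20 and lower in 0, with a median of 1.32 on the log2 scale, against backgrounds of 73.7% higher and 5.73% lower and a median of 0.71 over 5424 genes. DHX8 had 115 and 109.7 outer tags per 100 inner tags in C48, against 39.05 and 31.0 in DMSO. DDX23 had 79.7 and 75.5 in C48, against 29.7 and 27.1 in DMSO, and DDX49 28.4 and 27.45 in C48, against 9.59 and 8.94 in DMSO. The 4 members that did not pass were DDX3X, DDX6, DDX54 and DDX1. In DDX3X and DDX6 the zones follow annotated starts that differ from the RefSeq starts used here. The outer peak of DDX6, chr11:118791571-118791959, lies over its RefSeq start, and the inner peak, chr11:118790376-118791232, lies downstream of it. In DDX3X the ratio was 46.0 and 46.1 in C48, against 48.95 and 47.6 in DMSO, a log2 change of -0.07 (SE 0.08, adjusted p = 0.48 in limma). DDX5 had the smallest change that passed (0.43, adjusted p = 0.0157), with outer and inner signal both lower.

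**Figure D5:**
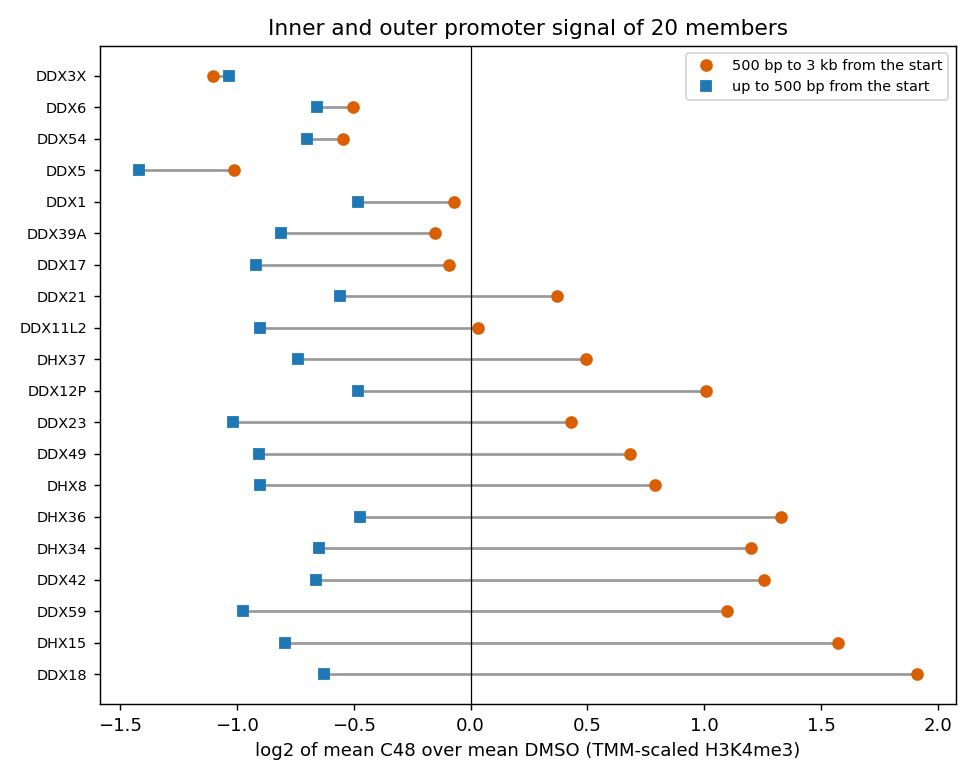
Log2 of the mean of the C48 libraries over the mean of the DMSO libraries, in TMM-scaled H3K4me3, for the signal from 500 bp to 3 kb of the annotated start site (circles) and up to 500 bp (squares) in 20 members, in order of the change of their ratio. The squares all lie below 0, though many lie above it with the ribosomal standard, the circles spread over both sides, and the gap from square to circle is widest in DDX18 (2.54) and near 0 in DDX3X (-0.07).

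Peaks more than 3 kb away name a member only as the nearest gene. Of 29 such called peaks, 12 were higher and 6 lower, against backgrounds of 44.6% higher and 13.8% lower, and 15 of them lie 10.65 to 813 kb upstream of DDX18. Another 5 had DDX53 as nearest gene, with 3 higher and 0 lower. The 6 lower peaks had DDX10, DDX18, DDX19A, DDX39A, DHX30 and DHX34 as nearest genes.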

How the data were processed

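CUT&Tag for H3K4me3 was analysed in 2 C48 and 2 DMSO libraries of HCC1428, grouped and numbered by the sample titles; the table tags the treated columns GNE, and the sample descriptions tie them to C48. The authors aligned reads with Bowtie2 2.3.4.1 to hg38, called peaks per library and merged them with those of other cell lines in HOMER (no version stated in the sources used here). The deposited table holds, per the file headers, a signal of tags per 10 M aligned tags for 110018 peaks, with no spike-in scaling; 45692 of them had been called in 1 or more libraries of this line. In each library 99.98% or more of the values were whole tags within 0.1, and HOMER counts each mate of a read pair as a tag.

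Peaks were summed per gene as deposited and divided by TMM factors (edgeR 4.0.16) over the called peaks. Genes with a mean of at least 5 were tested with limma-trend 3.58.1 in R 4.3.3 on log2(value + 1), so fold changes of low genes are understated, with Benjamini-Hochberg adjustment over all genes. Single peaks, the signal from 1 to 3 kb and its ratio to that within 1 kb were tested in the same way. A design for counts was foreseen for a table of counts only; counts recovered from the values entered edgeR and DESeq2 1.42.0 as alternatives. The script was tested on simulated data. Other alternatives were scalings, filters, pseudocounts, distances, single libraries left out and a replicate block. The same-numbered libraries did not deviate together across genes (correlation of -0.04), and the main test did not pair them. With 2 libraries a group, this value cannot exclude a batch shared by number.

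Members, roles and lists were chosen with earlier results of these data known. Libraries were shown value by value for a fixed set of members, for the 5 with the highest and the 8 with the lowest fold change and for any member higher in C48. DHX8, DDX56 and the other members given library by library or peak by peak were singled out after their values were seen. Promoter sequences are from RefSeq on GRCh38.p14. The deposited table of repeat counts was not used. Tables were built and plots drawn in Python 3.11.15, pandas 2.3.3, numpy 2.4.6 and matplotlib 3.10.9.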

Additional observations from a re-analysis of the deposited data

How the results depend on the processing

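The main limits are the scaling, which sets the sign of most members' change, and 2 libraries a group. With DESeq2 size factors 0 members within 1 kb were higher, against 12.6% of all genes, and the median was -0.675. With the tags per 10 M as deposited, 23 were lower, 7 higher and the median was -0.149 (all genes 41.2% lower and 35.8% higher), with the total over called peaks 19, 7 and -0.0839 (36% and 40.7%), with TMM over the per-gene sums 21, 7 and -0.111 (38.3% and 38.7%), and with the ribosomal protein promoters 4, 29 and 0.258 (8.41% and 73%). The same 5 scalings gave medians from 1 to 3 kb of 1.13, 1.63, 1.69, 1.67 and 2.02, beside 1.25 as reported. For the members' single peaks, the deposited scaling gave 29 higher and the ribosomal standard 6 lower and 54 higher. Peaks up to 500 bp gave a median of -0.626. Peaks annotated promoter-TSS gave 20 lower and 2 higher of 26 (all genes 61.8% lower and 16.3% higher). The RefSeq window gave 2 higher (all genes 16.3%), DDX11 and DDX11-AS1, which are the same shared region counted for both genes. From 1 to 3 kb, a pseudocount of 5 gave a median of 1.09, and a mean of at least 20 gave 3 higher of 4 and 1.38. For the ratio these gave 1.65 and 2.11, and the boundary at 500 bp 16 higher and 1.32, beside 6 and 1.81. Leaving out 1 library gave medians within 1 kb of -0.59 to -0.531, counts of 0 to 1 higher, medians from 1 to 3 kb of 1.15 to 1.34 and of the ratio of 1.66 to 1.96.

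Of the 41 tested members, 30 turned from a negative to a positive log2 fold change with the ribosomal standard: DDX1 0.344, DDX10 0.314, DDX11-AS1 0.657, DDX12P 0.411, DDX18 0.179, DDX19A 0.308, DDX21 0.306, DDX23 0.258, DDX39A 0.138, DDX41 0.409, DDX42 0.15, DDX46 0.283, DDX47 0.744, DDX49 0.128, DDX50 0.128, DDX52 0.265, DDX54 0.15, DDX55 0.245, DDX56 0.547, DDX6 0.165, DHX15 0.0137, DHX29 0.194, DHX30 0.246, DHX33 0.121, DHX34 0.428, DHX35 0.268, DHX36 0.334, DHX37 0.282, DHX57 0.264 and DHX8 0.563. With the deposited scaling 7 did: DDX11-AS1 0.254, DDX12P 0.00474, DDX41 0.00182, DDX47 0.34, DDX56 0.14, DHX34 0.0222 and DHX8 0.156. With the total over called peaks 8 did: DDX1 0.0025, DDX11-AS1 0.319, DDX12P 0.0699, DDX41 0.0671, DDX47 0.405, DDX56 0.205, DHX34 0.0873 and DHX8 0.222. With TMM over the per-gene sums 7 did: DDX11-AS1 0.292, DDX12P 0.0433, DDX41 0.0404, DDX47 0.378, DDX56 0.178, DHX34 0.0607 and DHX8 0.195. With peaks annotated promoter-TSS alone, which leaves both genes only an upstream peak, DDX23 was 0.49 and DHX35 0.251. DDX19B, near 0, was -0.125 with DESeq2 factors, -0.00222 in edgeR, -0.0015 in DESeq2 and -0.0311 to 0.0317 with a library left out, where DDX47 (-0.121 to 0.00665) and DDX53 (-0.0665 to 0.318) also crossed 0. Of the members' other values under alternatives, 654 kept sign and call, 36 lost the call and 9 gained it. Pairing libraries by number in a replicate block left 36 members lower and 1 higher.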
